A study of Atriplex lentiformis with 8 samples.

Results

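The autophagy genes of Atriplex lentiformis (quailbush, a salt-tolerant C4 shrub) were examined in leaves grown at 2 temperatures. They were found through the best Arabidopsis match of each assembled transcript: a transcript was taken where the description of its match speaks of autophagy in any form, or where the symbols of the match hold the letters ATG followed by a digit. This gave 60 of 46492 transcripts, matched to 25 of 12468 loci. The description chose 38 transcripts and the symbols 52, with 30 chosen by both. The letters also caught 6 loci (14 transcripts) whose descriptions name other functions, such as a chlorophyll synthase and an acyl-CoA oxidase. These are given apart, and the remaining 19 loci (46 transcripts) are called the autophagy genes here. A gene name stands for the match of a transcript and does not show orthology.

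RNA came from 8 leaf libraries, 4 biological replicates per condition, all of plants with 8 weeks in the labels. The cool chamber ran at 23/18 °C and the hot one at 43/30 °C (day/night), under the same photoperiod of 16 hours and the same light intensity of 120 microEinstein. The labels give the cool leaves a 16:3 lipid phenotype and the hot leaves an 18:3 lipid phenotype. Each condition had its own chamber, so temperature and chamber cannot be told apart. The deposited table holds 1 FPKM value (fragments per kilobase, scaled to sequencing depth) per transcript and temperature, taken here as the authors' mean over libraries. No value of a single library was analysed, so the FPKM values carry no SD, read depth is unknown, and which libraries were high or low or whether the groups overlap was not analysed here. The words rose and fell are kept for transcripts that the authors' deposited table lists with an adjusted p under 0.05.

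Autophagy carries cytoplasm and organelles to the vacuole inside a double membrane, the autophagosome. A kinase complex around ATG1 and ATG13 starts it, a phosphatidylinositol 3-kinase complex with ATG6 marks the membrane, and ATG9, ATG2 and the ATG18 proteins feed and shape it. The ubiquitin-like protein ATG8 is then coupled to a membrane lipid by enzymes that resemble those of ubiquitin conjugation, and receptors bind both ATG8 and the cargo. In leaves the process is known for nutrient recycling in darkness and senescence and for the removal of damaged proteins under heat.

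The autophagy genes were lower or did not pass at 43 °C. By the most abundant transcript of each locus, 10 of 19 genes fell, 9 did not pass and none rose. Over all matched loci 30.9% fell and 26.9% rose by the same measure, and among loci with a mean of at least 5 FPKM 37.5% fell and 26.2% rose. The genes that fell were ATG2, ATG5, ATG6, ATG7, ATG8A, ATG8F, ATG8I, ATG18A, ATG18F and ATG18H. The median log2 change over all 19 genes was -0.38 in the authors' deposited table, against -0.01 over the most abundant transcripts of all loci. The changes were small: the ratio of 43 °C to 23 °C lay between 0.450 for ATG18F and 1.25 for ATG8D, and only ATG18F changed by more than 2-fold.

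Counted over single transcripts the picture was less one-sided. Of the 46 autophagy transcripts 12 fell, 3 rose and 31 did not pass, against 17.8% lower and 20.7% higher over all transcripts of the table. With the 6 other loci added, 18 of the 60 transcripts fell and 5 rose. The 18 autophagy transcripts with a mean of at least 5 FPKM held 10 of the 12 that fell and none that rose, where 35.2% of all transcripts of that abundance fell and 26.2% rose. The 28 rarer ones held the 3 that rose and the other 2 that fell. Small changes were called more often in abundant transcripts. At means of 5 to 50 FPKM, 40.1% of all transcripts with a log2 change between 0.2 and 0.4 in either direction passed in the authors' deposited table, and 92.3% of those between 0.8 and 1. Under 5 FPKM only 11.9% of those between 0.8 and 1 passed, so a rare transcript that did not pass may still have differed.

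**Figure D1:**
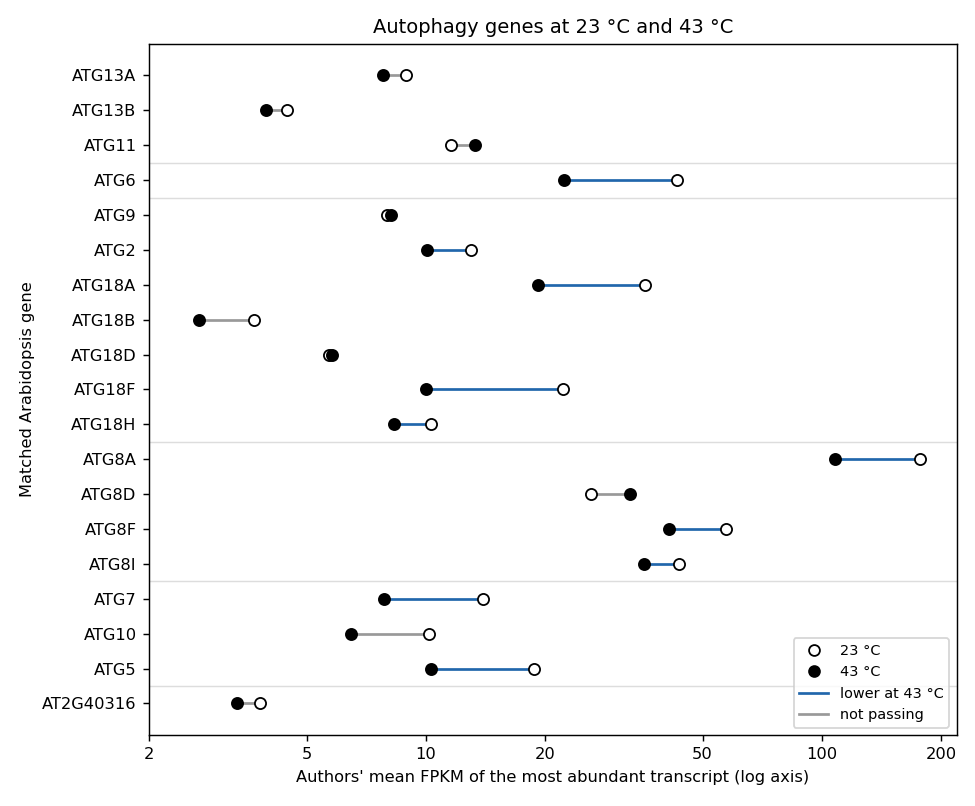
Authors' mean FPKM (log axis) of the most abundant transcript of each of the 19 autophagy genes at 23 °C (open) and 43 °C (filled), ordered by role with grey rules between roles. Blue lines mark the 10 genes that fell and grey lines the 9 that did not pass; ATG8A was the highest at both temperatures, at 178 and 108 FPKM.

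The 2 columns of the table differ in their totals, which bears on changes of this size. Multiplied by transcript length in kilobases, FPKM gave totals of 1084419 for 23 °C and 909555 for 43 °C, and making these equal adds 0.25 to every log2 change. With approximated calls, 7 of the 19 genes would then be lower (ATG5, ATG6, ATG7, ATG8A, ATG8F, ATG18A and ATG18F) and 2 higher (ATG8D and ATG11), beside 20.3% lower and 39.7% higher over all loci and 12.9% and 27.9% over all transcripts. ATG2, ATG8I and ATG18H would no longer pass. Centring on the median of all transcripts instead gave 11 lower genes, with ATG10 added, and none higher, beside 35.6% lower and 22.6% higher over all loci and 20.2% and 18.3% over all transcripts.

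**Figure D2:**
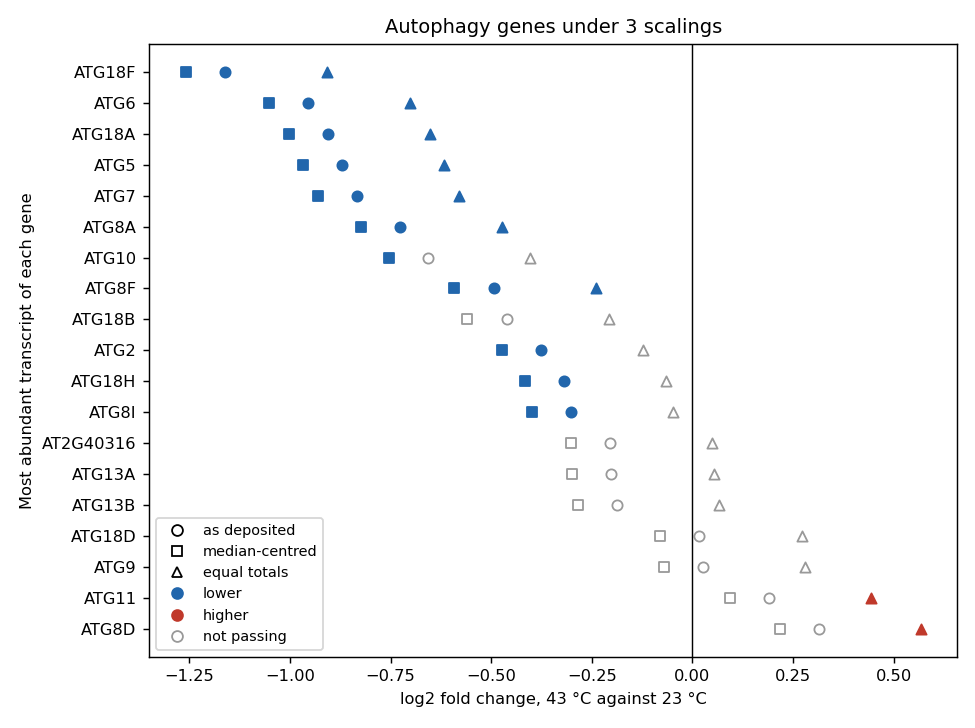
The log2 change of the most abundant transcript of each autophagy gene as deposited (circles), centred on the median of all transcripts (squares) and with equal length-weighted totals (triangles), with filled symbols for approximated or deposited calls. ATG18F, ATG6, ATG18A, ATG5, ATG7, ATG8A and ATG8F stay lower under all 3 scalings, while ATG8D and ATG11 are called higher only with equal totals.

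Leaf RNA mixes cell types, and in bulk tissue fewer cells of a type and less RNA per cell cannot be told apart. Photosynthetic leaf markers were abundant at both temperatures, with the Rubisco small subunit RBCS1A at 3882 and 3154 FPKM. All 5 matched genes of 6 listed fell, from a sum of 30800 to 13820 FPKM over their transcripts, of which LHCB1.3 made 16749 and 7014. Over all loci 30.9% fell and 26.9% rose. Phloem markers had 2 of 3 genes lower (sums of 229 and 68.4 FPKM, mostly SUC2), epidermis markers 1 of 3 matched genes higher (63.6 and 128 FPKM, of which PDF1 made 0.803 and 65.9 and KCS6 54.1 and 51.5), guard cell markers 1 of 3 higher (22.3 and 17.5 FPKM) and markers of dividing cells 2 of 2 matched genes higher (6.61 and 15.7 FPKM). Senescence markers, which often accompany autophagy in ageing leaves, had 3 of 4 matched genes of 8 listed lower. Their sums were 226 and 121 FPKM, of which the pheophytinase gene PPH, 1 of the 3, made 210 and 118. The protease gene SAG12 and the regulator NAP also fell, while ORE1 did not pass. With equal totals 4 of the 5 leaf markers, 2 phloem and 3 senescence markers were lower, and the call of RBCS1A ended. Higher were then 2 epidermis, 1 guard cell and 2 dividing cell markers. Over all loci 20.3% were lower and 39.7% higher with equal totals. No most abundant marker transcript was listed at 0. The part of these shifts in the autophagy values was not tested.

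Among the initiation genes no member passed by its most abundant transcript. ATG13A and ATG13B (AT3G49590 and AT3G18770), regulatory subunits of the ATG1 kinase, did not pass at 8.90 and 7.81 FPKM (ATG13A) and at 4.46 and 3.94 FPKM (ATG13B), the first value being that of 23 °C here and below. ATG11 (AT4G30790), a scaffold of the complex, did not pass at 11.6 and 13.3 FPKM. A second ATG13A transcript fell from 2.98 to 1.49 FPKM, at a log2 fold change of -1.01 and adjusted p = 0.0193 by the authors' deposited table. Its call ended with equal totals. The sums over transcripts of ATG13A were 11.9 and 9.30 FPKM. With equal totals the log2 changes of ATG13A and ATG13B turned positive (0.053 and 0.066) and neither passed, while ATG11 was called higher (0.44). The kinases themselves carry no autophagy word in the table and were looked up by locus. AT2G37840 (ATG1C) fell from 9.41 to 5.15 FPKM and AT3G61960 (ATG1A) from 18.5 to 15.5 FPKM, while the truncated form AT1G49180 (ATG1T) rose from 4.57 to 7.26 FPKM. A rarer ATG1C transcript, chosen after its values were seen, rose from 0.653 to 3.06 FPKM. AT5G66930 (ATG101), a further subunit, fell from 14.3 to 11.0 FPKM. The calls of ATG1A and ATG101 ended with equal totals.

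ATG6 (AT3G61710), the plant Beclin 1, showed one of the clearest falls. Its single transcript went from 43.1 to 22.4 FPKM, at a log2 fold change of -0.95 and adjusted p = 3.35e-27 by the authors' deposited table. With equal totals the log2 value was -0.70. ATG6 works in a complex with the lipid kinase VPS34, the kinase-like VPS15 and either ATG14 or VPS38. VPS34 moved in both directions: its most abundant transcript fell from 19.8 to 7.98 FPKM and its other transcript rose from 1.76 to 9.39 FPKM, so that the sums were 21.6 and 17.4 FPKM. AT4G08540 (ATG14B) fell from 14.8 to 8.31 FPKM, and AT2G32760 (VPS38) did not pass at 5.12 and 4.16 FPKM. The most abundant transcript matched to AT4G29380 (VPS15) rose from 15.0 to 24.9 FPKM, but it is 973 bases long with a weak match (E value 1.5e-12). The long VPS15 transcript, of 4305 bases and an E value listed as 0, fell from 13.2 to 9.87 FPKM, and its call ended with equal totals. A further short VPS15 transcript, of 1043 bases and an E value of 8.2e-08, rose from 7.03 to 15.9 FPKM. The 7 transcripts matched to VPS15 summed to 54.3 and 78.2 FPKM, most of it from short ones with weak matches.

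ATG9 and ATG2, which act at the growing membrane, differed in their calls. ATG9 (AT2G31260), a membrane protein carried on vesicles, did not pass at 7.96 and 8.15 FPKM. The second ATG9 transcript, with a weak match (E value 3.4e-13) and at 4.04 and 4.98 FPKM, did not pass either. ATG2 (AT3G19190), a lipid transfer protein, fell from 13.0 to 10.1 FPKM, at a log2 fold change of -0.38 and adjusted p = 0.000145 by the authors' deposited table. With equal totals the ATG2 log2 value was -0.12 and did not pass. The difference between ATG9 and ATG2 was not tested.

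The ATG18 proteins bind the lipid made by VPS34 and help ATG2. Of 5 ATG18 genes 3 fell (2 with equal totals), beside 30.9% (20.3%) of all loci, and 2 did not pass. Of their 18 transcripts 4 fell and 1 rose, beside 17.8% and 20.7% of all transcripts. ATG18F (AT5G54730) fell from 22.2 to 10 FPKM, the lowest ratio among the autophagy genes, at a log2 fold change of -1.16 and adjusted p = 4.31e-08 by the authors' deposited table. Its other 3 transcripts did not pass. One of them, with a weaker match (E value 2.6e-23), had 1.14 and 3.59 FPKM. The main transcript made up 87.2% of the ATG18F sum at 23 °C and 61.9% at 43 °C, and the sums were 25.5 and 16.1 FPKM. ATG18A (AT3G62770), the member most studied in Arabidopsis autophagy, fell from 35.7 to 19.2 FPKM, at a log2 fold change of -0.91 and adjusted p = 1.86e-20 by the authors' deposited table. A second ATG18A transcript, at 17.4 and 17.9 FPKM, did not pass and held 32.8% of the sum at 23 °C and 48.3% at 43 °C. ATG18H (AT1G54710) fell from 10.3 to 8.29 FPKM, at a log2 fold change of -0.32 and adjusted p = 0.0335 by the authors' deposited table, and a rarer one of its 4 transcripts, chosen after its values were seen, fell from 2.44 to 1.27 FPKM, a call that also ended with equal totals. ATG18D (AT3G56440) did not pass at 5.68 and 5.80 FPKM. ATG18B (AT4G30510) did not pass at 3.68 and 2.67 FPKM, and neither did 5 of its 6 further transcripts. The exception, again chosen after its values were seen, rose from 0.005 to 0.258 FPKM and made up 2.85% of the ATG18B sum at 43 °C. No transcript matched ATG18C, ATG18E or ATG18G.

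The ATG8 genes included the 3 most abundant autophagy genes, and 3 of the 4 matched ATG8 genes fell (2 with equal totals), beside 30.9% (20.3%) of all loci. ATG8A (AT4G21980) fell from 178 to 108 FPKM, at a log2 fold change of -0.73 and adjusted p = 1.38e-15 by the authors' deposited table. ATG8F (AT4G16520) fell from 57.4 to 41.0 FPKM, at a log2 fold change of -0.49 and adjusted p = 8.3e-06 by the authors' deposited table, and kept its call at log2 -0.24 with equal totals. ATG8I (AT3G15580), of a group that in Arabidopsis ends in the exposed glycine that coupling to the lipid needs, fell from 43.6 to 35.6 FPKM, at a log2 fold change of -0.30 and adjusted p = 0.0248 by the authors' deposited table. ATG8D (AT2G05630) did not pass at 26.2 and 32.8 FPKM. Neither did a second transcript with a weak match to ATG8D (E value 1.9e-08), at 5.78 and 7.32 FPKM. Of the FPKM summed over the 4 main transcripts, ATG8A held 58.3% at 23 °C and 49.7% at 43 °C, and ATG8D 8.59% and 15.1%. The sums themselves were 305 and 217 FPKM. ATG8A, ATG8F and ATG8I were the 3 highest of the 19 genes in that order at both temperatures, and ATG8D went from rank 6 to rank 4 as ATG6 and ATG18A came to lie below it. Whether neighbours in this order differ could not be tested on means. No transcript matched the other 5 Arabidopsis ATG8 genes.

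**Figure D3:**
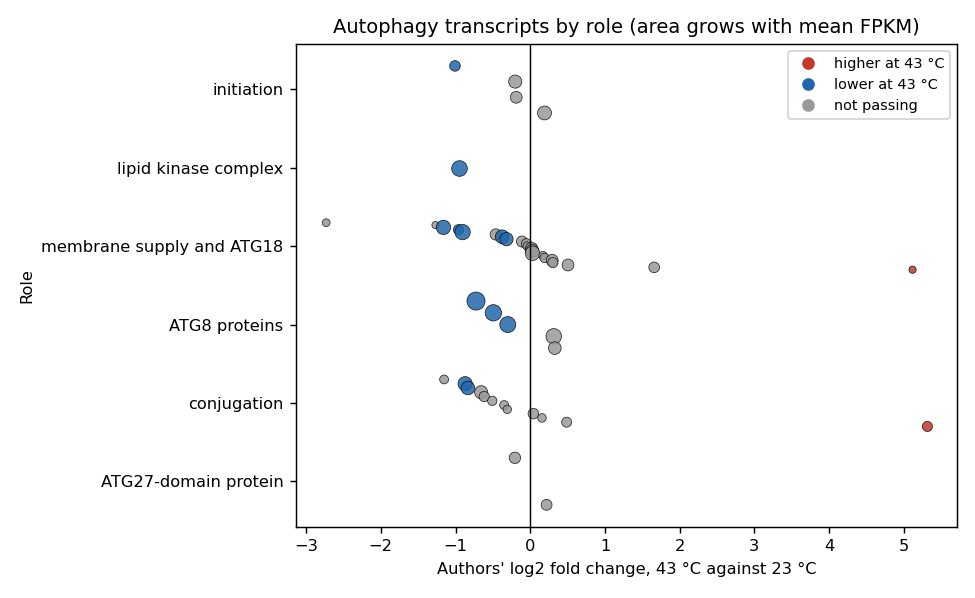
Authors' log2 fold change of 45 of the 46 autophagy transcripts by role, with the area growing with mean FPKM and colour giving the call. The large symbols lie at or left of 0 apart from ATG8D, ATG9, ATG11 and ATG18 transcripts that did not pass, and the 2 red symbols are rare transcripts of ATG18B and ATG10; an ATG10 transcript listed at 0 at 23 °C is left out, since a fold against 0 is no measured ratio.

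Of the genes that couple ATG8 and ATG12, some fell and none rose by the most abundant transcript. ATG7 (AT5G45900), the activating enzyme shared by both, fell from 13.9 to 7.85 FPKM, at a log2 fold change of -0.83 and adjusted p = 2.92e-12 by the authors' deposited table. ATG5 (AT5G17290), the acceptor of ATG12, fell from 18.8 to 10.3 FPKM, at a log2 fold change of -0.87 and adjusted p = 1.23e-09 by the authors' deposited table. The second ATG5 transcript, at 2.24 and 2.32 FPKM, did not pass. Outside the members, AT2G44140 (ATG4A), a protease that trims ATG8, fell from 16.9 to 11.1 FPKM. ATG12B fell from 15.9 to 10.6 FPKM and by a second transcript from 8.19 to 3.44 FPKM. AT5G50230 (ATG16), which binds the ATG12-ATG5 conjugate, fell from 6.74 to 4.90 FPKM. AT3G59950 (ATG4B) did not pass at 2.04 and 1.84 FPKM, and no transcript matched ATG3 or ATG12A. With the members, 5 of 7 matched conjugation genes fell, 2 did not pass and none rose, beside 30.9% lower over all loci and 37.5% over those of at least 5 FPKM. The calls of ATG16 and of the most abundant ATG12B transcript ended with equal totals, which leaves 3 of 7 lower beside 20.3% of all loci. The second ATG12B transcript stayed lower, at a log2 value of -1.01.

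ATG10 (AT3G07525), the enzyme that hands ATG12 to ATG5, had the most transcripts, 10 under a single assembly name. The most abundant one did not pass at 10.2 and 6.48 FPKM, at a log2 fold change of -0.66 and adjusted p = 0.0588 by the authors' deposited table. One transcript of 1174 bases, chosen after its values were seen, rose from 0.09 to 3.34 FPKM (the authors' deposited table gives adjusted p = 1.59e-08). Another, of 1344 bases, was listed at 0 in the cool leaves and reached 0.36 FPKM in the hot ones (the authors' deposited table gives adjusted p = 0.0288). The remaining 7 did not pass. The transcript of 1174 bases made up 0.486% of the ATG10 sum at 23 °C and 19.7% at 43 °C, and the most abundant one 55.0% and 38.2%. The sums over all 10 were 18.5 and 17.0 FPKM, a log2 ratio of -0.12. No source used here says how reads were shared among such variants, so levels of single variants are less certain than the sums.

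**Figure D4:**
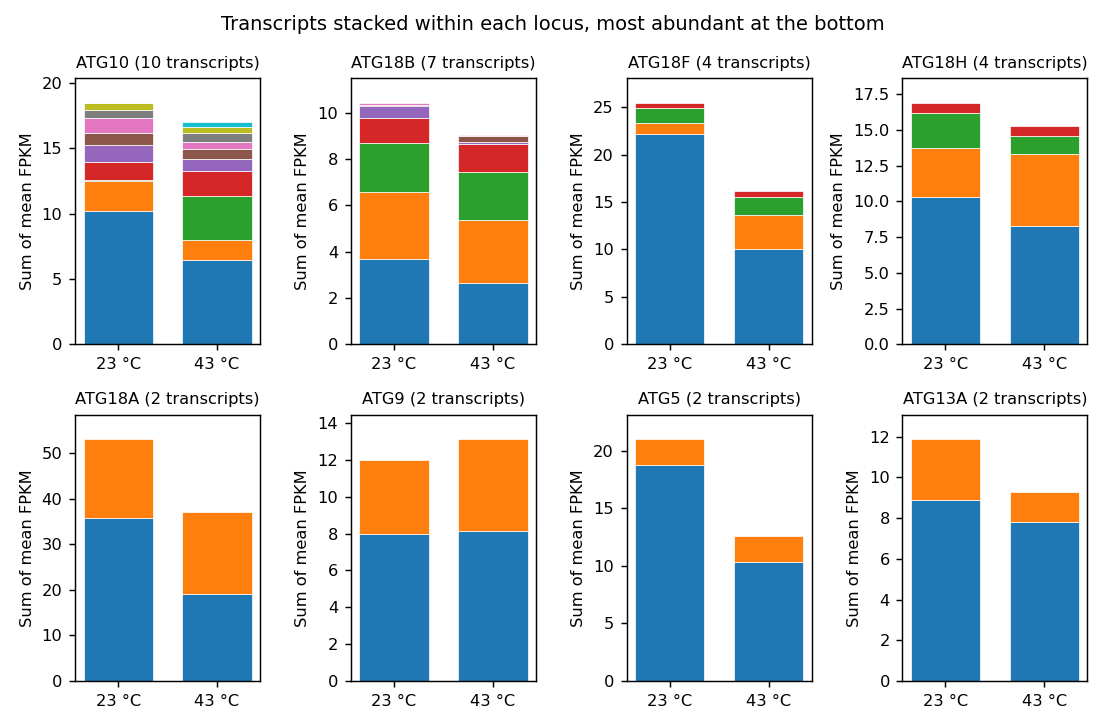
Mean FPKM of each transcript stacked within 8 loci at 23 °C and 43 °C, the most abundant at the bottom; colours mark transcripts within a panel and carry no meaning across panels. The ATG10 stacks reach 18.5 and 17.0 FPKM with a layer that appears at 43 °C, while the ATG18F and ATG5 stacks are shorter at 43 °C through their lowest layer.

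Sums over the transcripts of a locus gave the same count of directions as the most abundant transcripts. Of the 19 genes 15 had a lower sum at 43 °C and 4 a higher one (ATG8D, ATG9, ATG11 and ATG18D), with a median log2 ratio of -0.29. By the authors' calls no autophagy gene had both a risen and a fallen transcript. With equal totals the main transcripts of ATG18A and ATG18F were lower and their second ones higher, at log2 0.28 and 1.91. AT2G40316, which the table describes only by an ATG27 domain known from a yeast membrane protein of autophagy, did not pass at 3.82 and 3.34 FPKM or by its other transcript at 2.43 and 2.84 FPKM.

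Further genes of the pathway, looked up by locus from lists of 70 genes and not members themselves, moved in both directions. Of 52 such genes 30 were matched, and 16 fell, 5 rose and 9 did not pass, beside 30.9% lower and 26.9% higher over all loci. At E values of at most 1e-30, 17 fell and 4 rose, with VPS15 then among those that fell. With equal totals 7 of the 30 would be lower and 7 higher, beside 20.3% and 39.7%, so the lower share is then near that of all loci. Over their 68 transcripts 23 fell and 11 rose, beside 17.8% and 20.7% of all transcripts. Of the cargo receptors and adaptors 3 of 6 fell and none rose, beside 30.9% and 26.9% of all loci. With equal totals 2 were lower and 1 higher, beside 20.3% and 39.7%. The genes that fell were ATI2, DSK2B and TSPO. AT4G00355 (ATI2), an ATG8-binding protein, went from 58.7 to 40.6 FPKM. The ubiquitin receptor gene DSK2B went from 56.2 to 46.5 FPKM. TSPO, a membrane protein that binds porphyrins, went from 1.03 to 0.11 FPKM. The call of DSK2B ended with equal totals. NBR1 (AT4G24690), the receptor for ubiquitinated aggregates that Arabidopsis needs under heat, did not pass at 14.1 and 16.1 FPKM, with sums of 32.1 and 30.0 FPKM over its 3 transcripts. RPN10, a proteasome subunit, did not pass at 57.2 and 59.7 FPKM but was called higher with equal totals, at a log2 value of 0.31.

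Of 7 matched genes for the TOR and SnRK1 kinases, which hold autophagy back and promote it, 4 fell and 1 rose, beside 30.9% and 26.9% of all loci. With equal totals 1 was lower and 1 higher, beside 20.3% and 39.7%. TOR fell from 20.7 to 18.2 FPKM (the authors' deposited table gives adjusted p = 0.0471), its partner RAPTOR1B from 10.6 to 8.60 FPKM and the phosphatase-associated TAP46 from 18.8 to 14.6 FPKM, and none of these 3 passed with equal totals. KIN10, the catalytic subunit of SnRK1, fell from 41.4 to 28.4 FPKM and stayed lower with equal totals. The most abundant transcript matched to the S6 kinase S6K2 rose from 16.9 to 31.3 FPKM, while other transcripts of that locus fell from 17.7 to 11.2 and from 9.02 to 3.61 FPKM, and the 7 transcripts summed to 45.3 and 49.4 FPKM. AT1G04300 (TRAF1B), an adaptor in the turnover of ATG6, fell from 25.8 to 22.8 FPKM, a call that ended with equal totals. Among 4 genes of membrane closure, traffic and fusion, 2 rose and none fell by the most abundant transcript. Over all loci 26.9% rose and 30.9% fell. With equal totals 3 of these 4 genes were higher, with SH3P2 added, and none lower, beside 39.7% and 20.3%. Of the 9 transcripts of these genes 2 rose and 2 fell, beside 20.7% and 17.8% of all transcripts. VTI12, a SNARE of vacuolar fusion, rose from 20.5 to 53.4 FPKM, at a log2 fold change of 1.37 and adjusted p = 3.36e-48 by the authors' deposited table. AT1G20110 (FREE1), an endosomal sorting protein, had its most abundant transcript rise from 26.7 to 33.5 FPKM, while its other transcript fell from 30.8 to 17.4 FPKM and the sums were 57.5 and 50.8 FPKM. The membrane-bending protein gene AT4G34660 (SH3P2) did not pass by its most abundant transcript, at 11.7 and 13.7 FPKM, but its second one fell from 5.26 to 2.06 FPKM, and its sums were 18.5 and 17.2 FPKM.

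**Figure D5:**
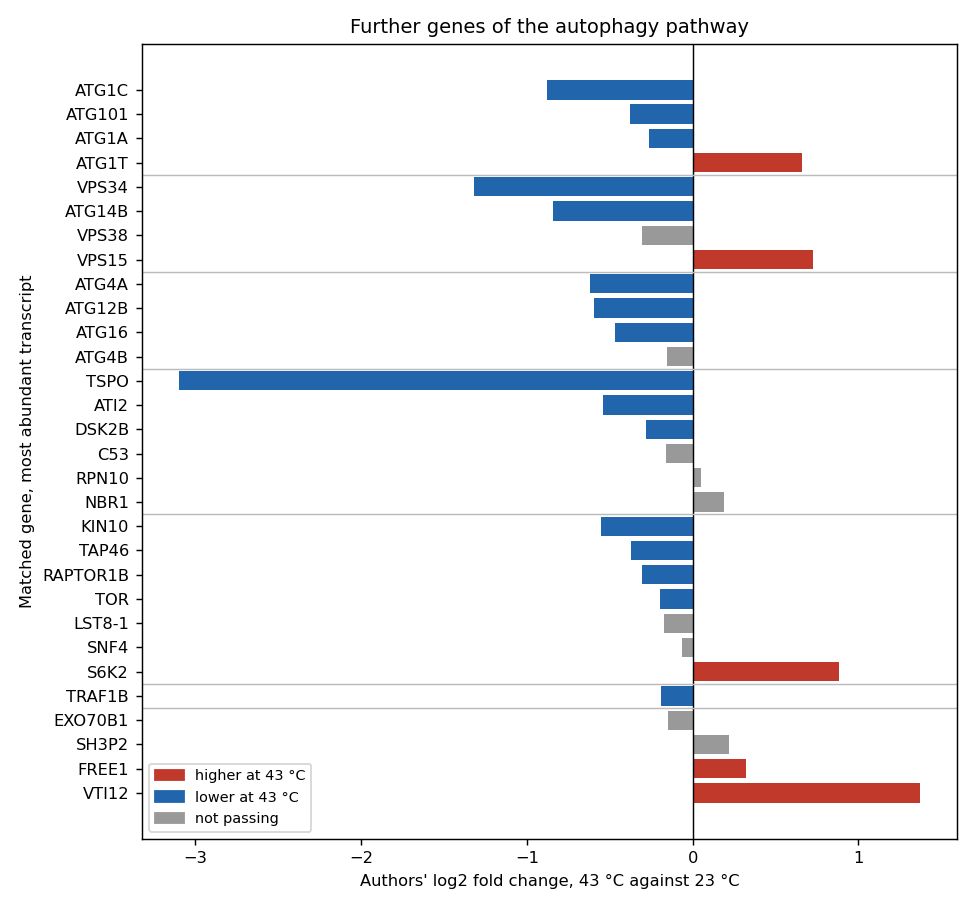
Authors' log2 fold change of the most abundant transcript of the 30 matched pathway genes that are not members, in list order: initiation, lipid kinase complex, conjugation, receptors, TOR and SnRK1, turnover, and traffic, with grey rules between lists. Blue bars are the 16 that fell, red bars the 5 that rose (ATG1T, VPS15, S6K2, FREE1 and VTI12), and grey bars the 9 that did not pass. The VPS15 bar is a short transcript with a weak match, and the long VPS15 transcript fell.

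The 6 loci caught by their letters alone behaved as follows. CHLG, the chlorophyll synthase, fell from 52.2 to 31.6 FPKM. SAC8, a phosphoinositide phosphatase, fell from 15.7 to 9.37 FPKM. The G2484-1 protein gene fell by both its transcripts, from 23.1 to 14.5 and from 14.6 to 7.83 FPKM. ACX4, an acyl-CoA oxidase of fatty acid breakdown, did not pass at 35.6 and 31.9 FPKM. AT3G51790, described as a transmembrane protein, rose from 7.58 to 12.1 FPKM. A metallopeptidase of the M24 family, AT3G51800, had its most abundant transcript rise from 44.5 to 51.9 FPKM and its other one fall from 23.1 to 9.97 FPKM, with sums of 67.6 and 61.9 FPKM. The call of the most abundant one ended after median centring and at an adjusted p of 0.01. Both genes that rose by their most abundant transcript among the 25 member loci came from these 6, as did 2 of the 5 risen transcripts. By that measure 2 of the 6 loci rose and 3 fell, beside 26.9% and 30.9% of all loci. Of their 14 transcripts 2 rose and 6 fell, beside 20.7% and 17.8% of all transcripts.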

How the data were processed

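RNA-seq of leaves was analysed from a single deposited table. CASAVA 1.8.2 and Bowtie2 are named, without their roles, per the submitters' processing notes. For the assembler, the counting tool and the authors' test, names were not given in the sources used here. Per the file headers, the table gives FPKM at each temperature, the authors' log2 fold change, the authors' p-value and adjusted p, transcript length and each transcript's BLASTx hit among TAIR10 proteins. Every FPKM value was a multiple of 0.0025, which a mean over 4 libraries gives for values kept to 2 decimals. The deposited adjusted p equalled a Benjamini-Hochberg adjustment over all 46492 transcripts to within 3.2e-07.

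No test between groups was run, since the table holds means; the planned limma fit needed single libraries. Calls use the authors' adjusted p at 0.05. No source used here says whether that p rests on the spread between plants. Counts per gene use the transcript with the highest mean FPKM. Named by rule were every member locus by that transcript, further transcripts of member loci that passed with at least 25% of its abundance or were listed at 0, and pathway genes that passed by it. Other named features, among them all further transcripts of pathway genes, pathway genes that did not pass and single markers, were chosen after their values were seen. Where the table gives only a description, the gene name after a locus is Arabidopsis background knowledge. The members and the 15 lists (98 genes) were chosen with earlier results of these data known. For centring and equal totals, new calls came from standard errors back-calculated from the authors' p under a normal distribution. The step was run on simulated data drawn under that same distribution, which cannot show whether the authors' p follows it. Other alternatives were an adjusted p of 0.01, minimum means of 1 and 5 FPKM, E values of at most 1e-30, pseudocounts of 0.1, 1 and 5, leaving out transcripts listed at 0, sums per locus and narrower member lists. Python 3.11.15 with pandas 2.3.3 and scipy 1.17.1 was used. No sequences are shown.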

Additional observations from a re-analysis of the deposited data

How the results depend on the processing

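Values below cover all 60 member transcripts and 25 loci. Of these transcripts 5 were higher and 18 lower. The higher count was 3 at an adjusted p of 0.01, at a minimum of 1 FPKM, at E values of at most 1e-30, and for the core lists or the 19 autophagy loci alone (chosen after seeing the data); it was 2 at a minimum of 5 FPKM and 9 with equal totals. Of the loci 2 were higher and 13 lower. The higher count was 1 at an adjusted p of 0.01 and after median centring, 4 with equal totals, and 0 for the core lists or the 19 loci. The lower counts stayed within 1.5 times of 18 and 13 under the alternatives run. The median log2 change of -0.20 was -0.43 at a minimum of 5 FPKM, -0.38 at E values of at most 1e-30, -0.065 with a pseudocount of 5 and 0.050 with equal totals. Over all transcripts the deposited median was 0.097, and -0.072 at a minimum of 5 FPKM. Equal totals add the same 0.25 to every transcript, so they leave the distance between the 2 medians unchanged. Among the 30 further pathway genes the lower count went from 16 to 7 with equal totals. At E values of at most 1e-30 it was 17, and the higher count went from 5 to 4. Equal totals also turned the log2 changes of ATG13A (0.053), ATG13B (0.066), AT2G40316 (0.048), ACX4 (0.083), SNF4 (0.19), TRAF1B (0.063), LST8-1 (0.081), TOR (0.054), EXO70B1 (0.11), C53 (0.094) and ATG4B (0.097), and median centring turned those of ATG9 (-0.071), ATG18D (-0.080) and RPN10 (-0.044). Adding a constant makes these shifts. No paired analysis was possible because the table holds means, and for the same reason no library could be left out. Unknown depth limits the rare transcripts most.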
